A study of Rattus norvegicus with 38 samples.

Results

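The 6 genes described here encode the enzymes and the transporter that make gluconeogenesis run against glycolysis: Pck1, Pck2, Pc, Fbp1, G6pc and Slc37a4. They were taken by symbol from the 31038 genes of the deposited count table, and all 6 had counts in all 38 libraries and passed the filter on low counts. The RNA came from livers of Sprague-Dawley rats collected on day 28. Control rats (n = 5) had no agent named in the labels, and 3 further groups without lipopolysaccharide had the extract EF alone (EF, n = 5), EF with PF (EF_PF, n = 5) or EF with RD (EF_RD, n = 4). Another 4 groups had lipopolysaccharide (LPS), the bacterial outer membrane component that sets off inflammation, alone (LPS, n = 5) or with the same extracts (LPS_EF, n = 5; LPS_EF_PF, n = 4; LPS_EF_RD, n = 5). Extracts went into the stomach, with 2.5 g/kg of EF, 2.5 g/kg of PF and 200 mg/kg of RD. PF and RD were never given without EF, so neither has a group of its own. LPS was injected into the abdomen. Its dose, the time from injection to collection and the rats' age, sex and feeding state are not stated in the sources used here.

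Gluconeogenesis is the route by which the liver builds glucose from lactate, amino acids and glycerol when none is coming in from food. Most of its steps are glycolytic reactions run backwards, and only a few enzymes are its own: pyruvate carboxylase, the phosphoenolpyruvate carboxykinases, fructose bisphosphatase and the glucose-6-phosphatase system. In the liver, Pck1 and G6pc are textbook targets of hormonal control of transcription, raised by glucagon through cyclic AMP and by glucocorticoids and lowered by insulin. The enzymes are most abundant in hepatocytes near the portal vein.

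The genes lie on 6 rat chromosomes, and positions are those of the count table, whose header names the build rn6. Pc (chromosome 1, 219759157 to 219859854, + strand, 23 exon blocks) encodes the mitochondrial carboxylase that turns pyruvate into oxaloacetate. Pck1 (chromosome 3, 171213936 to 171219885, + strand, 10 exon blocks) encodes the cytosolic carboxykinase that makes phosphoenolpyruvate, and Pck2 (chromosome 15, 34216735 to 34224357, + strand, 9 exon blocks) its mitochondrial counterpart. Fbp1 (chromosome 17, 396175 to 417480, − strand, 9 exon blocks) removes a phosphate from fructose bisphosphate. G6pc (chromosome 10, 89286009 to 89296213, + strand, 5 exon blocks) is the catalytic subunit of glucose-6-phosphatase in the endoplasmic reticulum. Slc37a4 (chromosome 8, 48716914 to 48723024, + strand, 12 exon blocks) carries glucose-6-phosphate into that compartment. A count covers all exons of a gene. Pc alone overlaps another listed gene, Lrfn4 on the other strand, which had 22 to 125 counts per library beside 7749 to 20235 for Pc.

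Promoter windows of 300 bases, from 250 before to 50 after the transcript start, were found for 5 of the 6 genes in RefSeq's table for the build GRCr8, where G6pc is listed as G6pc1. The windows of Pck1 and G6pc are shown because these genes had the lowest LPS levels relative to control, and that of Pck2 because it moved the other way. Each reads 5′ to 3′ on the gene's strand. Capitals mark TTACGT, letters found in some cyclic AMP response elements, and TGTTTTG, letters found in insulin response sequences, each on either strand. Other forms of these elements were not searched for, so a window without capitals may still hold one. In the G6pc window the 2 strands' TTACGT matches overlap.
Pck1, chr3:182348322-182348621, + strand: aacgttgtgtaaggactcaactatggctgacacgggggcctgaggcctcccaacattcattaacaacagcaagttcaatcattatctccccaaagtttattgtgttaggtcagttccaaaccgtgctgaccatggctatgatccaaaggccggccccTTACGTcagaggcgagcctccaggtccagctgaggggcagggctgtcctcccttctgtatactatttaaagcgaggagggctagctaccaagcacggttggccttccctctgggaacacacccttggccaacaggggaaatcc
G6pc, chr10:86807409-86807708, + strand: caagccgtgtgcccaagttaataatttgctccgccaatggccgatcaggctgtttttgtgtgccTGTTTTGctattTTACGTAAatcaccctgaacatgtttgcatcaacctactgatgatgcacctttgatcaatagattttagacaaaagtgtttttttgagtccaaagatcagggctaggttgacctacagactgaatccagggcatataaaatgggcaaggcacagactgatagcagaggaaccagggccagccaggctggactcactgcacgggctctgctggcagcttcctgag
Pck2, chr15:32997603-32997902, + strand: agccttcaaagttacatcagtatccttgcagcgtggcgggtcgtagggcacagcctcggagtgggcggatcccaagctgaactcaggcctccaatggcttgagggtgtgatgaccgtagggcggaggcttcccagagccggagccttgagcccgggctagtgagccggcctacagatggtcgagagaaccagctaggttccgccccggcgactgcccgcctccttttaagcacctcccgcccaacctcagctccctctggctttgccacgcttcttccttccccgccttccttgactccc
TTACGT began 93 bases before the start in Pck1 and 174 bases before it in G6pc. It was also found in 1 of the 2 windows of Slc37a4 and in no window of Pck2 or Fbp1. Over all 33469 windows of this length, 3.21% held TTACGT on either strand. TGTTTTG was found in the G6pc window only, 186 bases before the start, and in 6.28% of all windows. Sequence further than 250 bases before a start was not searched, so the other genes may hold these letters there. These letters were chosen after the windows had been read, and a match describes the sequence and is not evidence of binding.

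Each library is called by its group and the number in its title. Levels are given in CPM, counts relative to a library total that TMM normalisation has adjusted for composition. The libraries held 19716622 to 35835012 counted read pairs, and the smallest count of a gluconeogenesis gene was 177, for Pck2. The labels give hepatocyte as the cell type of liver samples. All 12 hepatocyte markers had counts in every group, with a sum of 144700 to 221800 CPM, and markers of other liver cells were present too, such as 10 Kupffer cell and macrophage markers at 236 to 1107 CPM. A2m, which rats make strongly in acute inflammation, was at 84.2 to 343.5 CPM in 17 of the 19 libraries with LPS. In the libraries labelled LPS_EF 7 and LPS_EF_RD 6 it was at 5.84 and 6.9 CPM, and without LPS it reached 17.2 CPM in EF 1 and 19 CPM in EF_RD 1 but at most 3.51 CPM elsewhere. Skeletal muscle markers summed to 3931 CPM in EF_RD 1 and 372 CPM in LPS 3, and exocrine pancreas markers to 2981 CPM in control 5 and 1724 CPM in LPS 3. The calls of the 6 genes are also given below from a fit without these 6 libraries, with their named values that this fit moved by over 1.5 times. Calls of markers and of wider lists are given from that fit only in part, and those not given may differ in it.

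Per transcript length, Pck1 was the most abundant of the 6 genes in control liver and Pck2 the least. The deposited TPM, a level per length, was 2852 ± 387 (SD, n = 5) for Pck1, 1052 ± 144 for Fbp1, 799.5 ± 179 for G6pc, 309 ± 53.6 for Pc, 194 ± 36.6 for Slc37a4 and 12.1 ± 1.17 for Pck2. The lowest control TPM of Pck1 (2355) lay above the highest of Fbp1 (1262), whereas Fbp1 and G6pc overlapped, as did Pc and Slc37a4. In LPS the TPM order of the means was the same, at 1517 ± 474 for Pck1, 660 ± 91.8 for Fbp1, 205 ± 129 for G6pc, 174 ± 24.3 for Pc, 121 ± 26.1 for Slc37a4 and 21.1 ± 2.14 for Pck2. The LPS range of G6pc, 75 to 404 TPM, took in those of Pc and Slc37a4. Pck2 made up 0.328% to 0.487% of the summed Pck1 and Pck2 TPM in control and 0.924% to 2.72% in LPS, so the mitochondrial form stayed a small share of carboxykinase transcripts while its share did not overlap between the groups.

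In rats given no extract, Pck1, Pc, Fbp1, G6pc and Slc37a4 fell with LPS and Pck2 rose. G6pc had the largest difference, 4.3-fold lower, and the other genes that fell were 1.75-fold to 2.06-fold lower. All 6 genes were called at an adjusted p under 0.05, where 36.8% of the 14786 tested genes were called, and for all 6 the control and LPS libraries did not overlap, as for 25% of all tested genes. The median log2 fold change of the 6 was −0.90, beside −0.0018 for all genes tested.

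For Pck1, the controls had 3541, 4494, 3597, 4061 and 4989 CPM and the LPS livers 1277, 1728, 2072, 1913 and 3031 CPM. The highest LPS library lay below the lowest control. The level fell by 1.04 on the log2 scale (SE 0.28, adjusted p = 0.00427). For Pck2, which is far less abundant, the controls had 12, 13.9, 12.7, 12.5 and 11.8 CPM and the LPS livers 25.7, 18.4, 19.5, 17.3 and 20.4 CPM. Every LPS library was above every control. The rise was 1.61-fold, a log2 fold change of 0.69 (SE 0.17, adjusted p = 0.00174).

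Pc, which feeds oxaloacetate to both carboxykinases, had 767, 742.8, 503.6, 834 and 823 CPM in control and 325, 410.1, 372, 395 and 367 CPM in LPS. Control 5, the control library with pancreas markers, was the lowest and still above all LPS libraries. The fall was 1.96-fold (log2 fold change −0.97, SE 0.15, adjusted p = 1.99e-05), the smallest adjusted p among the 6 genes.

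Fbp1 had 811, 844, 674.5, 976 and 901 CPM in control and 419, 426, 494, 529 and 538 CPM in LPS. This was the smallest fall of the 5 (log2 fold change −0.81, SE 0.15, adjusted p = 0.000136), with a gap between the groups of 538 to 674.5 CPM.

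At the last step, G6pc had 768, 1039, 1175, 1146 and 826 CPM in control and 93.4, 123, 442.5, 203 and 290.4 CPM in LPS. Its LPS libraries spread over a 4.74-fold range and its controls over a 1.53-fold range. The log2 fold change was −2.10 with an SE of 0.57 and a 95% confidence interval from −3.26 to −0.95 (adjusted p = 0.00423). Slc37a4, its partner, had 371, 270.2, 212, 270.1 and 261 CPM in control and 117, 192, 144.5, 155 and 172 CPM in LPS. Its fall was 1.77-fold (log2 fold change −0.83, SE 0.19, adjusted p = 0.00107).

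All 6 calls were kept in each of the 21 alternative fits of this comparison. Without the 6 libraries that stand apart, 36.5% of 14821 tested genes were called, and the log2 fold changes were −1.10 for Pck1, 0.70 for Pck2, −1.08 for Pc, −0.89 for Fbp1, −2.41 for G6pc and −0.88 for Slc37a4.

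Other liver markers moved in the same comparison, where 36.8% of all genes were called. Of 12 hepatocyte markers 7 were called lower and 1 higher, and their sum was 180300 to 218600 CPM in control and 145400 to 173500 CPM in LPS. Of 10 markers of periportal hepatocytes 8 were called lower and 1 higher, with sums of 14010 to 16600 CPM in control and 7137 to 9585 CPM in LPS. Of 10 pericentral markers 2 were called in each direction, and without the 6 libraries that stand apart 4 were called higher and 2 lower. All 8 tested of 10 neutrophil and monocyte markers were higher, with sums of 25.8 to 97.6 CPM in control and 213 to 426 CPM in LPS. The macrophage list had 6 of 10 genes higher and none lower, with sums of 300.3 to 573 CPM and 585 to 844 CPM. No marker of these 5 lists that is in the count table was at 0 throughout either group, and the part of these changes in the result was not tested. In whole liver, fewer cells of a type and less RNA per cell cannot be told apart.

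**Figure D1:**
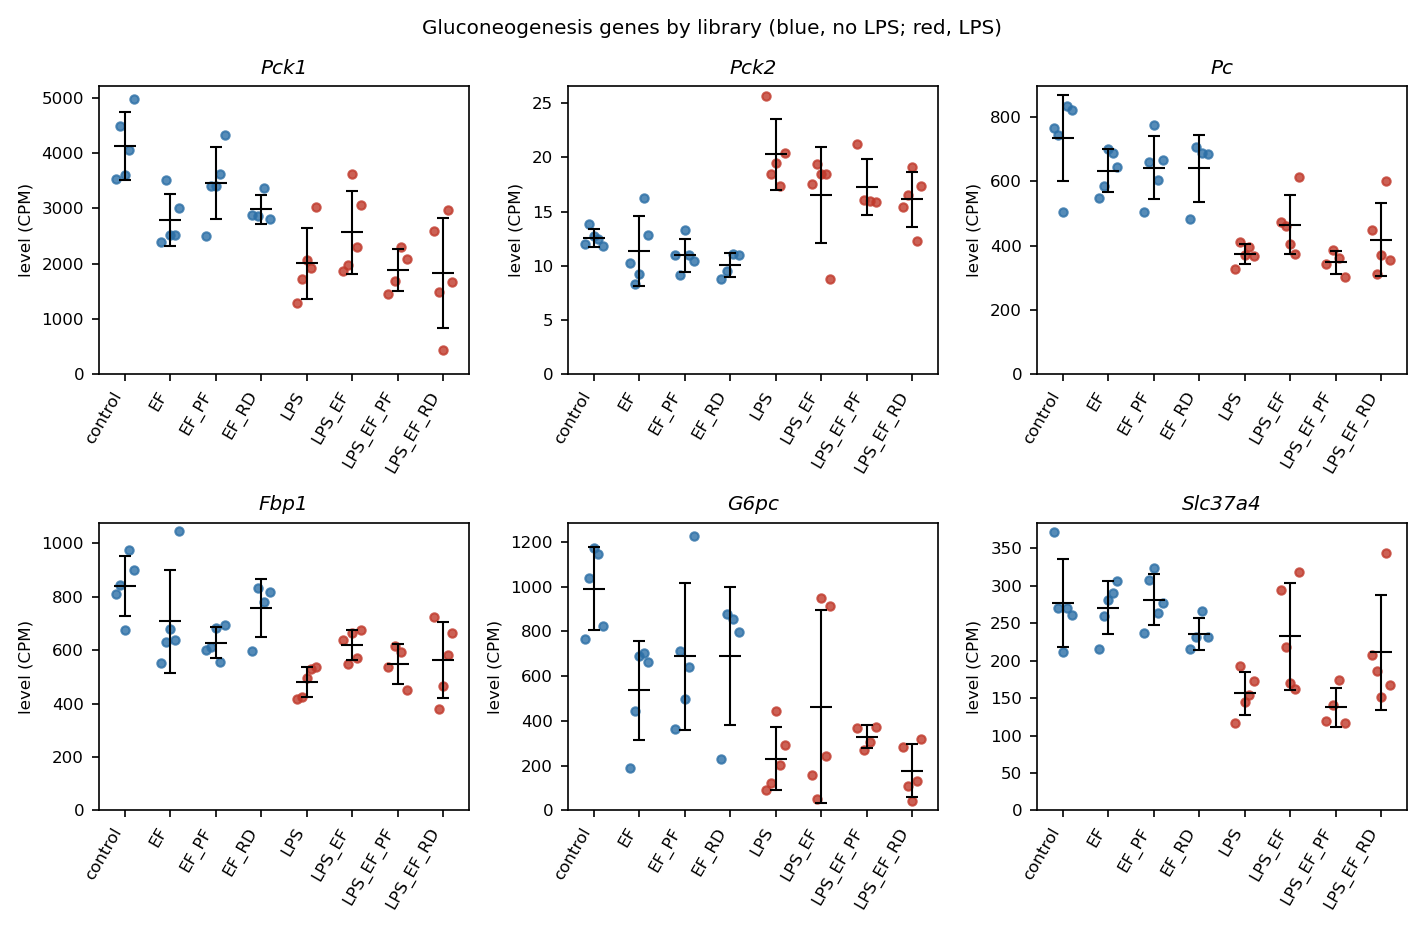
Levels of the 6 gluconeogenesis genes in 38 livers, in CPM on linear axes from 0. Each point is a library (blue without LPS, red with LPS), the dash is the group mean and the bar ±1 SD. In 5 panels the red points sit low and in the Pck2 panel high. G6pc has the widest spread relative to its mean in every group except control and LPS_EF_PF.

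The LPS response was also measured on the background of each extract treatment. Pck2 was called higher and Pc lower in all 4 comparisons of LPS with no LPS, whereas Pck1, Fbp1, G6pc and Slc37a4 were called in some. Beside LPS against control, 2 of 6 genes were called in LPS_EF against EF, where 29.1% of all genes were called, 4 of 6 in LPS_EF_PF against EF_PF (36.5% of all genes) and 4 of 6 in LPS_EF_RD against EF_RD (23.5% of all genes). The sign of all 6 fold changes was the same in the 4 comparisons. Groups did not overlap for 0, 4 and 1 of the 6 genes in these last 3 comparisons, beside 9.98%, 37.1% and 14.3% of all genes. These 4 comparisons share no libraries.

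Pck2 had 10.2, 8.29, 9.25, 16.3 and 12.9 CPM in EF and 17.6, 19.4, 18.5, 18.4 and 8.76 CPM in LPS_EF. The groups overlapped through the library labelled LPS_EF 7, which had little A2m, and the other 4 LPS_EF libraries lay above all 5 EF libraries. Its log2 fold change was 0.54 (SE 0.17, adjusted p = 0.016) there, 0.66 (SE 0.18, adjusted p = 0.0041) in LPS_EF_PF against EF_PF and 0.68 (SE 0.18, adjusted p = 0.00665) in LPS_EF_RD against EF_RD. Over the whole series 13 of 19 LPS libraries had more Pck2 than any of the 19 without LPS. The level without LPS ran from 8.29 to 16.3 CPM and with LPS from 8.76 to 25.7 CPM.

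Pc had 547, 586, 701.1, 687.5 and 645 CPM in EF and 474, 459.6, 406, 374 and 613.5 CPM in LPS_EF. Again the library labelled LPS_EF 7 lay among the livers without LPS. The log2 fold change of Pc was −0.45 (SE 0.15, adjusted p = 0.0271) in that background. It was −0.89 (SE 0.16, adjusted p = 0.000102) in LPS_EF_PF against EF_PF, with no overlap of groups, and −0.62 (SE 0.16, adjusted p = 0.00599) in LPS_EF_RD against EF_RD. Across the series, 17 of 19 LPS libraries had less Pc than any of the 19 without LPS, the largest such count of the 6 genes.

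Pck1 differed little between LPS_EF (1868 to 3616 CPM) and EF (2385 to 3514 CPM), with a log2 fold change of −0.12 and a 95% confidence interval from −0.69 to 0.45 (adjusted p = 0.783). In LPS_EF_PF it had 1451, 1693, 2298 and 2081 CPM, all below the 2501 to 4327 CPM of EF_PF (log2 fold change −0.88, SE 0.30, adjusted p = 0.0229). In LPS_EF_RD it had 2591, 1486, 429.5, 2971 and 1661 CPM beside 2816 to 3377 CPM in EF_RD. The library labelled LPS_EF_RD 6, with little A2m, was the highest of the 5 and LPS_EF_RD 4 the lowest Pck1 level of the series. This difference was not called (log2 fold change −0.71, SE 0.30, adjusted p = 0.0778) but was without LPS_EF_RD 6 (−0.95, adjusted p = 0.0165) or without LPS_EF_RD 1 (−0.88, adjusted p = 0.0404).

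Fbp1 was called in LPS_EF_RD against EF_RD only just (log2 fold change −0.43, SE 0.16, adjusted p = 0.0492), a call that 8 of 20 alternative fits lost, among them those without EF_RD 2, EF_RD 3, EF_RD 4, LPS_EF_RD 2 or LPS_EF_RD 4 (adjusted p = 0.0991 to 0.146). Its log2 fold changes in the EF and EF_PF backgrounds, −0.19 and −0.20, were not called, with 95% confidence intervals from −0.50 to 0.11 and from −0.52 to 0.13. Slc37a4 fell in LPS_EF_PF, which had 120, 141, 174 and 117 CPM where EF_PF had 236 to 323 CPM (log2 fold change −1.03, SE 0.21, adjusted p = 0.000228). In the EF and EF_RD backgrounds its log2 fold changes were −0.22 (adjusted p = 0.414) and −0.16 (adjusted p = 0.595), and without the 6 libraries that stand apart −0.43 (adjusted p = 0.0406) and −0.45 (adjusted p = 0.0551). Slc37a4 was at 319 CPM in LPS_EF 7 and 343 CPM in LPS_EF_RD 6, the highest values among all LPS libraries. The difference between the EF_PF and EF_RD backgrounds was not tested.

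G6pc had the widest fold range of the 6 genes within every group except control and LPS_EF_PF. LPS_EF held 160, 51.9, 948, 244 and 912 CPM, an 18.3-fold range in 5 livers labelled with the same agents. The last value is of LPS_EF 7, which had little A2m, and the range runs from LPS_EF 4 to LPS_EF 5. EF 5, EF 4 and EF 3 had 663, 703 and 689 CPM, EF 2 had 446 CPM and EF 1 had 189 CPM, so the groups overlapped (log2 fold change −0.22, 95% confidence interval from −1.33 to 0.90, adjusted p = 0.8). In LPS_EF_RD it had 286, 107.5, 42.2, 132 and 317 CPM, and EF_RD had 232, 878, 856 and 796.5 CPM. EF_RD 1, the library with muscle markers and a raised A2m, made these groups overlap, and the log2 fold change was −1.96 (SE 0.59, adjusted p = 0.0149). In LPS_EF_PF it had 368, 271, 306 and 375 CPM, a 1.38-fold range and the narrowest of the 8 groups, beside 365, 713, 499, 641.5 and 1227 CPM in EF_PF. This difference was not called (log2 fold change −1.06, SE 0.59, adjusted p = 0.161), except when only the groups compared were fitted (−1.04, adjusted p = 0.0153).

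Without the 6 libraries that stand apart, 3, 4 and 5 of the 6 genes were called in the EF, EF_PF and EF_RD backgrounds, where 40.1%, 41.1% and 32.7% of all genes were called. Slc37a4 was then called in LPS_EF against EF and Pck1 in LPS_EF_RD against EF_RD (log2 fold change −0.97, adjusted p = 0.0271). In LPS_EF against EF the log2 fold change moved from −0.22 to −0.83 for G6pc (adjusted p = 0.246), from −0.12 to −0.24 for Pck1 (adjusted p = 0.566) and from −0.19 to −0.30 for Fbp1 (adjusted p = 0.139). The calls in LPS_EF against EF also rested on single libraries. The number of genes called was 0 without EF 3 or without LPS_EF 4, and 1 without EF 2, EF 4, LPS_EF 5 or LPS_EF 6. The call of Pck1 in LPS_EF_PF against EF_PF was lost without EF_PF 6, LPS_EF_PF 1 or LPS_EF_PF 3 (adjusted p = 0.0549, 0.0747 and 0.0586) and with the replicate number as a block (adjusted p = 0.0514). It was also lost with total counts in place of TMM (adjusted p = 0.06) and in 3 limma fits of log2 TPM (adjusted p = 0.0897 to 0.138), which makes 8 of 20 alternative fits.

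The hepatocyte marker sum overlapped between LPS_EF (165800 to 207200 CPM) and EF (158400 to 221800 CPM). It also overlapped between LPS_EF_RD (144700 to 209900 CPM) and EF_RD (162600 to 180700 CPM). It did not between LPS_EF_PF (149700 to 164400 CPM) and EF_PF (177100 to 210200 CPM). Of 10 periportal markers 2 were called lower in LPS_EF against EF, 7 in LPS_EF_PF against EF_PF and 5 in LPS_EF_RD against EF_RD. The shares of all genes called there were 29.1%, 36.5% and 23.5%. Pericentral markers summed to 5887 to 7701 CPM in EF_PF and 3382 to 4359 CPM in LPS_EF_PF, without overlap. Their sums overlapped between EF (5758 to 7534 CPM) and LPS_EF (3101 to 6193 CPM). They also overlapped between EF_RD (4801 to 5751 CPM) and LPS_EF_RD (3112 to 7371 CPM). Neutrophil and monocyte markers summed to 77.9 to 321 CPM in LPS_EF, with 7 of 8 tested called higher. The part of these marker changes in the results for the 6 genes was not tested.

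**Figure D2:**
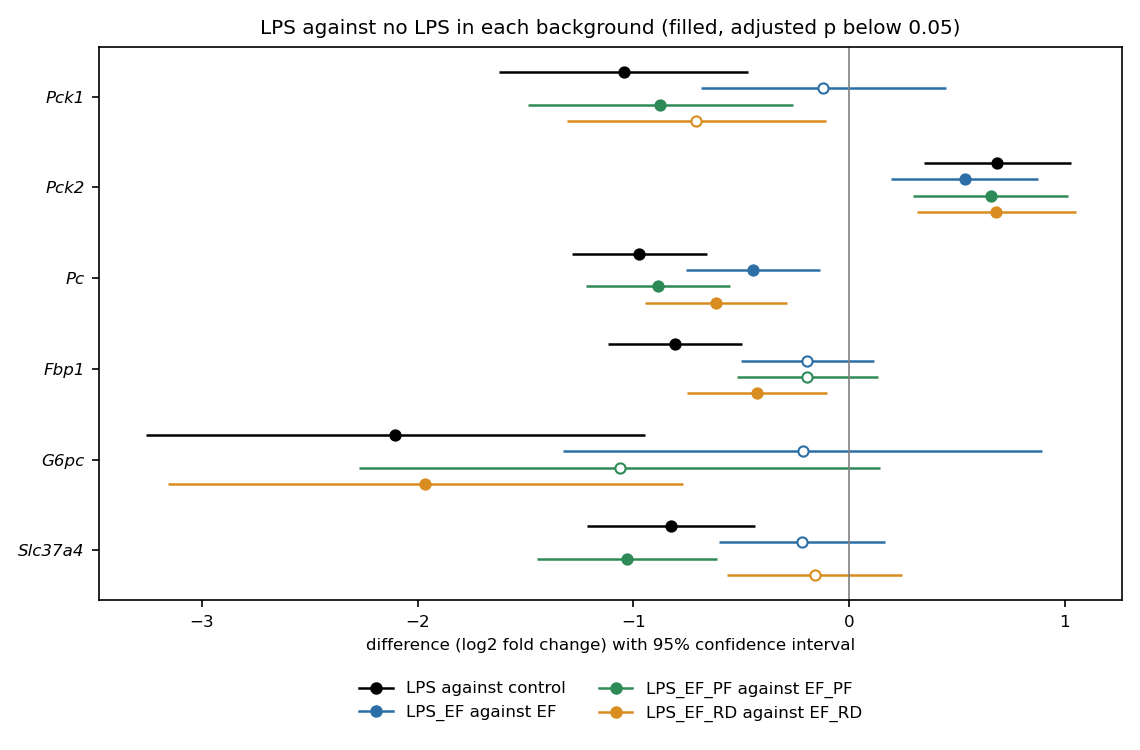
Log2 fold change of LPS against no LPS for each gene (points) with its 95% confidence interval (lines), in rats without an extract (black) and on the background of EF (blue), EF_PF (green) or EF_RD (orange). Filled points were called at an adjusted p under 0.05; Pck2 lies right of 0 and Pc left of 0 in all 4, and the intervals of G6pc are the widest.

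Whether an extract treatment changed the LPS response was tested as an interaction, the LPS fold change with the extract minus that without it. No gluconeogenesis gene was called by edgeR, DESeq2 or limma in any of the 3 interactions, where 0.108% of all genes were called for EF, 0.0812% for EF_PF and 0.128% for EF_RD. At an unadjusted p under 0.05 there were 5 of the 6 genes for EF, 1 for EF_PF and 1 for EF_RD, beside 6.87%, 4.86% and 7.5% of all genes. For EF the differences were 1.89 for G6pc (95% confidence interval from 0.30 to 3.47, adjusted p = 0.626), 0.93 for Pck1 (adjusted p = 0.639), 0.61 for Fbp1 (adjusted p = 0.512), 0.61 for Slc37a4 (adjusted p = 0.649) and 0.53 for Pc (adjusted p = 0.619). For Pck2 it was −0.15 (95% confidence interval from −0.63 to 0.33, adjusted p = 0.952). None passed the correction over all genes, and the lower number of calls in LPS_EF against EF is not shown to be a smaller response. For EF_PF, Fbp1 had the only unadjusted p under 0.05 (0.61; without the 6 libraries that stand apart 0.69, adjusted p = 0.398), and for EF_RD Slc37a4 (0.66, adjusted p = 0.592; without the 6 libraries 0.43, adjusted p = 0.802). For EF the differences without the 6 libraries were 1.58 for G6pc (adjusted p = 0.695) and −0.05 for Pck2 (adjusted p = 0.983).

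The extracts without LPS left no call among the 6 genes. By edgeR, 0.92% of all genes were called in EF against control, 0.622% in EF_PF against control and 1.52% in EF_RD against control, and DESeq2 and limma called none of the 6 either. At an unadjusted p under 0.05 there were 0, 1 and 0 of the 6, beside 11.4%, 12.5% and 16.3% of all genes. Groups did not overlap for 2 of the 6 in EF and 2 in EF_RD, beside 1.8% and 5.82% of all genes. Pck1 had 2 such comparisons. In EF it had 2385, 3514, 2523, 2518 and 3004 CPM, all below the lowest control at 3541 CPM. Its log2 fold change was −0.57 (95% confidence interval from −1.14 to 0.00, adjusted p = 0.444). G6pc in EF, with at most 703 CPM, was also below every control (log2 fold change −0.88, 95% confidence interval from −2 to 0.24, adjusted p = 0.597). In EF_RD, Pck1 and Pck2 were below all controls, with log2 fold changes of −0.47 (adjusted p = 0.457) and −0.32 (adjusted p = 0.384). In EF_PF, Fbp1 had the only unadjusted p under 0.05 (log2 fold change −0.42, SE 0.15, adjusted p = 0.189). Without the 6 libraries that stand apart there was again no call, and the log2 fold changes in EF were −0.56 for Pck1 and −0.60 for G6pc. These 3 comparisons share the 5 controls.

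None of the 6 was called in EF_PF against EF or in EF_RD against EF by edgeR, DESeq2 or limma, where edgeR called 0.162% and 0.724% of all genes, and 0 of the 6 had an unadjusted p under 0.05 in either, beside 12.3% and 14.6% of all genes. The log2 fold changes ran from −0.17 for Fbp1 to 0.36 for G6pc in EF_PF against EF and from −0.20 for Slc37a4 to 0.36 for G6pc in EF_RD against EF. The 95% confidence intervals of G6pc, from −0.76 to 1.47 and from −0.81 to 1.54, were wide, and without the 6 libraries that stand apart its value in EF_PF against EF was 0.14 (adjusted p = 0.944).

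In rats given LPS, no gluconeogenesis gene was called by edgeR for an added extract treatment. All genes called were 0.108% in LPS_EF against LPS, 0.0406% in LPS_EF_PF against LPS and 0.0135% in LPS_EF_RD against LPS, and DESeq2 and limma called none of the 6. The counts at an unadjusted p under 0.05 were 3, 0 and 1 of the 6, beside 9.82%, 6.03% and 7.64% of all genes. In LPS_EF against LPS these were Slc37a4 (log2 fold change 0.57, SE 0.19, adjusted p = 0.256), Fbp1 (0.36, SE 0.15, adjusted p = 0.4) and Pc (0.32, SE 0.15, adjusted p = 0.497; without the 6 libraries that stand apart 0.19, adjusted p = 0.625). Fbp1 had 639.5, 546, 663, 572 and 674 CPM in LPS_EF, all above the highest LPS library at 538 CPM, and was the only 1 of the 6 whose groups did not overlap there, beside 2.63% of all genes. G6pc had a log2 fold change of 1.01 with a 95% confidence interval from −0.12 to 2.13 (adjusted p = 0.56). In LPS_EF_RD against LPS the gene was Slc37a4 (0.43, SE 0.19, adjusted p = 0.598), at 0.16 (adjusted p = 0.801) without the 6 libraries that stand apart, a fit that made no call in these 3 comparisons either. They share the LPS libraries.

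Within the LPS groups, PF or RD on top of EF gave no call by edgeR in LPS_EF_PF against LPS_EF (0.00676% of all genes) or in LPS_EF_RD against LPS_EF (0% of all genes). Pc (log2 fold change −0.42, adjusted p = 0.581) and Slc37a4 (−0.75, SE 0.20, adjusted p = 0.476) had an unadjusted p under 0.05 in the first of these, beside 8.15% of all genes. DESeq2 called Slc37a4 there (log2 fold change −0.74, adjusted p = 0.032), and limma called none. In the other, G6pc was the only gene at an unadjusted p under 0.05 (−1.39, 95% confidence interval from −2.52 to −0.26, adjusted p = 0.999; without the 6 libraries that stand apart −0.90), beside 2.79% of all genes, and DESeq2 and limma called none.

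**Figure D3:**
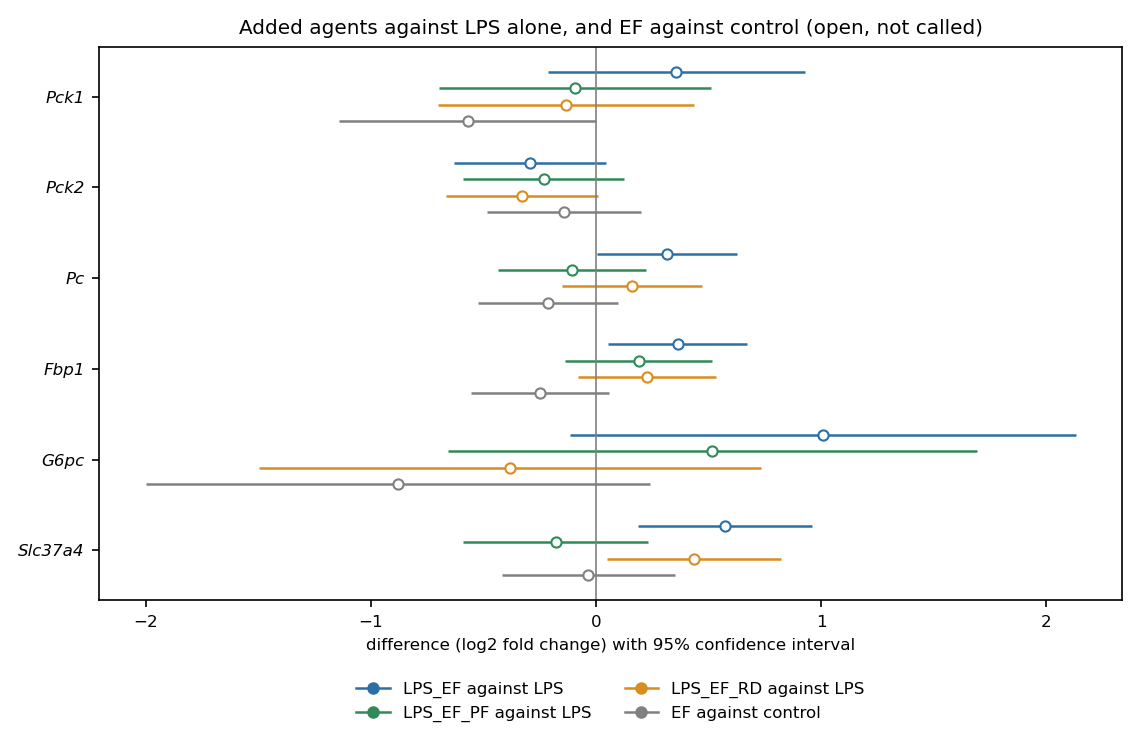
Log2 fold change of each gene (open points, none called) with its 95% confidence interval (lines) for LPS_EF (blue), LPS_EF_PF (green) and LPS_EF_RD (orange) against LPS, and for EF against control (grey). The first 3 share the LPS libraries. The intervals of Slc37a4, Fbp1 and Pc in LPS_EF and of Slc37a4 in LPS_EF_RD exclude 0 before adjustment over all genes.

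Ordered by mean level, the 4 groups without LPS came before the 4 with LPS for Pck1, Pc, Fbp1, G6pc and Slc37a4, and after them for Pck2. Control had the highest mean of Pck1, Pc, Fbp1 and G6pc, whereas EF_PF (282 CPM) and control (277 CPM) headed Slc37a4. The lowest mean was in LPS_EF_RD for Pck1 (1828 CPM) and G6pc (177 CPM), in LPS_EF_PF for Pc (347 CPM) and Slc37a4 (138 CPM) and in LPS for Fbp1 (481 CPM). Neighbouring groups in each of the 6 orders overlapped. From the lowest to the highest library, G6pc spanned 29.1-fold and Pck1 11.6-fold, and the other genes 2.76-fold to 3.17-fold.

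The genes did not vary as 1 unit among livers of the same group. After the group means were subtracted from log2 CPM, Pearson's r over the 38 libraries was 0.77 between Pc and Slc37a4, 0.60 between Pck1 and G6pc, 0.57 between Pc and Fbp1, and 0.54 between Fbp1 and G6pc. G6pc and Slc37a4, the parts of the same phosphatase system, had an r of 0.14. Pck2 had a negative r with each of the others, from −0.42 with Slc37a4 to −0.04 with Fbp1. These are descriptions: the values share library, depth and scaling, and those libraries that stand apart are among the points.

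**Figure D4:**
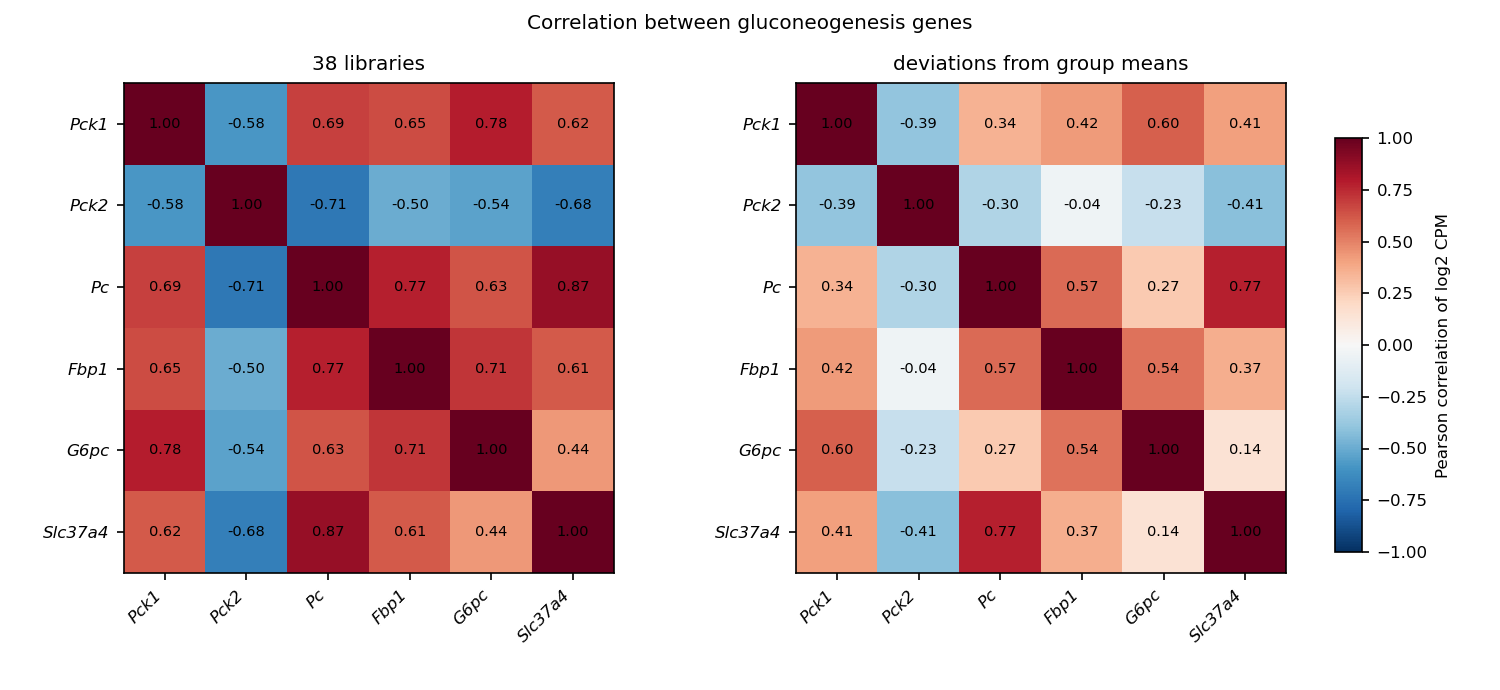
Pearson correlation of log2 CPM between the 6 genes over 38 libraries, before (left) and after (right) subtraction of group means, on a colour scale from −1 to 1. Pck2 is negative with the other 5 in both; Pc with Slc37a4 is the highest pair in both.

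The genes most like each of the 6 were sought by Pearson's r over the 38 libraries among the 9121 genes averaging 5 CPM or more. For Pck1 they were Pxmp4 (0.84), Mfsd2a (0.83), Tat (0.83), Pptc7 (0.78) and G6pc (0.78), and after subtraction of group means Mfsd2a (0.83), Tat (0.75), Pptc7 (0.72), Pxmp4 (0.70) and Zfp41 (0.68). For G6pc they were Cluh (0.83), Kctd6 (0.82), Eci2 (0.82), Nrbf2 (0.82) and Etfdh (0.80), and within groups Cluh (0.80), Zfp41 (0.78), Eci2 (0.75), Kctd6 (0.75) and Limd1 (0.74). Zfp41 and, across libraries, G6pc itself thus stood near Pck1. For Pck2 they were Dpagt1 (0.92), Qpctl (0.91), Ddost (0.91), Slc38a10 (0.91) and Cnpy3 (0.90), and within groups Dpagt1 (0.80), Sec61a1 (0.78), Nomo1 (0.78), Slc38a10 (0.76) and Mrpl17 (0.75).

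Among the closest genes to Pc were Grhpr (0.94), Adhfe1 (0.93), Aldh2 (0.93) and Colec11 (0.93), and within groups Slco2b1 (0.81), Hpn (0.81), Lipc (0.79) and Grhpr (0.78). Among those of Slc37a4 were Ahcy (0.91), Klc4 (0.91), Bckdha (0.90) and Bcl6b (0.90), and within groups Klc4 (0.88), Ahcy (0.84), Pdk2 (0.84) and Bckdha (0.82). Klc4, Ahcy and Bckdha were thus near Slc37a4 both across libraries and within groups. For Fbp1 they were Eci2 (0.84), Adtrp (0.83), Abhd1 (0.82), Aspg (0.81) and Agxt (0.80), and within groups Hadha (0.82), Lcat (0.79), Agxt (0.78), Decr1 (0.75) and Adtrp (0.75).

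The genes around the pathway were counted by list in LPS against control, where 36.8% of all genes were called. The 11 reversible enzymes comprise steps shared with glycolysis and the malate and aspartate enzymes that move oxaloacetate between compartments, and 4 of them were called lower and none higher, with a median log2 fold change of −0.08, among them the aspartate transaminases Got1 at −1.64 and Got2 at −0.38 and the glycolytic kinase Pgk1 at −0.32. The shares called of the reversible, regulator and fasting lists were near that of all genes. Of 7 enzymes and regulators on the opposing side, glycolysis entry and glycogen breakdown, 4 were also lower and none higher, with a median of −0.95. Among them were Gckr (−1.32), Pfkfb1 (−1.25) and the glycogen phosphorylase Pygl (−0.95). Genes on the opposing side and genes that make glucose were thus both among those lower with LPS.

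Of 17 genes that supply substrate 8 were lower and none higher, with a median of −0.45. The largest falls were in Sds, which degrades serine (−3.62, adjusted p = 0.00399), the alanine transaminase Gpt (−1.53), the amino acid transporter Slc38a2 (−1.27) and the tyrosine transaminase Tat (−1.20). Without the 6 libraries that stand apart 11 were lower and 1 higher, where 36.5% of all genes were called. Of 16 transcriptional regulators 6 were lower and none higher, with a median of −0.49, among them Foxo3 (−0.97), Cebpb (−0.71), Hnf4a (−0.69) and Cebpa (−0.68). Without the 6 libraries 6 regulators were lower and 1 higher. Ppargc1a, the coactivator known for inducing the pathway, was at 4.48 ± 2.36 CPM in control and 5.03 ± 2.46 CPM in LPS and was not called (adjusted p = 0.742).

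Of 12 hormone receptors and insulin signalling genes 2 were lower and none higher, Trib3 (−1.88) and Pik3r1 (−0.80). Igfbp1, which insulin represses, had 18.3 to 88.4 CPM in control and 6.4 to 45.7 CPM in LPS and was not called (adjusted p = 0.0861). Of 9 tested genes known to rise in fasting 3 were lower and none higher, among them Lpin1 (−1.21) and Cpt1a (−0.78), with a median of −0.65. The fasting state of the rats is not given, so it cannot be set beside these levels.

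The last list held other isoforms of the same steps and related transporters, and its called genes moved in both directions. G6pc3, the widely expressed glucose-6-phosphatase, rose from 4.79 ± 0.858 to 6.85 ± 0.598 CPM (log2 fold change 0.51, adjusted p = 0.00306) while G6pc fell, so that the TPM ratio of G6pc to G6pc3 went from 108 to 158 in control to 7.92 to 40 in LPS. Slc37a2, a sugar phosphate exchanger of the same family as Slc37a4, rose from 1.56 ± 0.31 to 4.61 ± 0.623 CPM (log2 fold change 1.56, adjusted p = 5.08e-06). The TPM ratio of Slc37a4 to Slc37a2 was 442 to 894 in control and 94.9 to 159 in LPS. Ratios in whole liver do not say which cells changed. Neutrophil and macrophage markers were also higher in this comparison, and their part in these ratios was not tested. Slc2a2, the glucose transporter of the hepatocyte surface, fell (−0.75, adjusted p = 0.0147), and Slc37a1 was not called. Fbp2 and G6pc2 were under the filter on low counts, with G6pc2 at 1 count over the 5 controls and 0 in LPS.

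G6pc3 and Slc37a2 were also called higher on all 3 extract backgrounds. The log2 fold changes of G6pc3 were 0.66 in LPS_EF against EF, 0.77 in LPS_EF_PF against EF_PF and 0.65 in LPS_EF_RD against EF_RD, and those of Slc37a2 were 1.51, 1.46 and 1.18. Slc37a1 was called in these 3, at 0.53, 0.61 and 0.70. Both alternative phosphatase and exchanger genes stayed at levels below those of G6pc and Slc37a4 in every library by TPM, since the lowest ratio of G6pc to G6pc3 was 3.72 and that of Slc37a4 to Slc37a2 was 86.8.

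**Figure D5:**
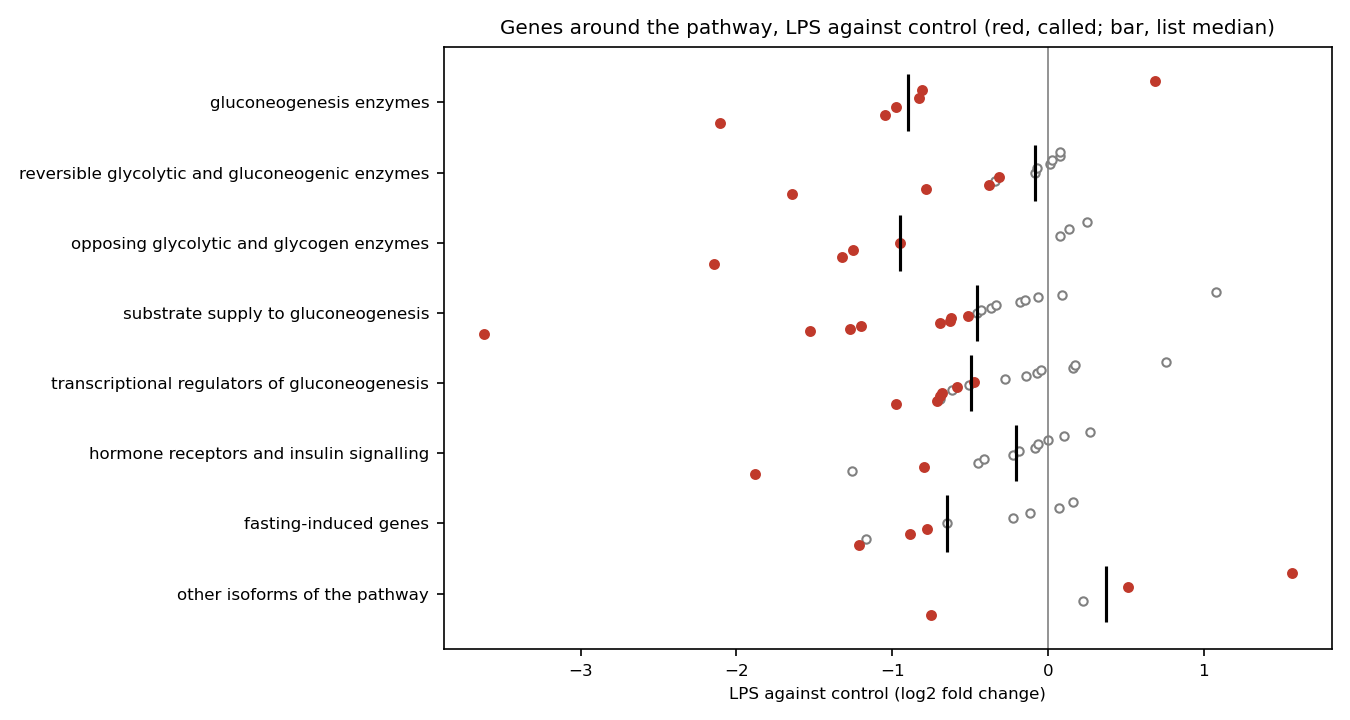
Log2 fold change of LPS against control for the 6 gluconeogenesis enzymes and 7 lists of genes around the pathway, each point a gene (red, called at an adjusted p under 0.05; open, not called) and each bar the median of its list. Calls lie left of 0 except Pck2, G6pc3 and Slc37a2.

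On the extract backgrounds other members of the lists were called too. Of all genes, 29.1% were called in LPS_EF against EF, 36.5% in LPS_EF_PF against EF_PF and 23.5% in LPS_EF_RD against EF_RD. In LPS_EF_PF against EF_PF, 8 of 17 substrate genes were lower and 1 higher, with Gpt at −2.34, Tat at −1.25, Slc38a2 at −0.96 and, higher, the lactate dehydrogenase subunit Ldhb at 1.38, and 7 of 16 regulators were lower, among them Ppargc1a (−0.97), Cebpb (−0.94), Cebpa (−0.85) and Klf15 (−0.84). On the opposing side 4 of 7 were lower and 1 higher, with Pfkfb1 at −2.34, and Lpin1 fell by 2.31 on the log2 scale. In LPS_EF against EF, 4 of 17 substrate genes and 2 of 16 regulators were lower and none higher, with Gpt at −1.47 and Cebpa at −0.71. In LPS_EF_RD against EF_RD, 4 of 17 substrate genes, 1 of 16 regulators and 5 of 9 fasting-induced genes were lower, with Gpt at −1.57, Creb3l3 at −0.65 and Pdk4 at −1.47, and the glycolytic pyruvate kinase Pklr was higher (1.13, adjusted p = 0.00414). Gpt was called lower in all 4 LPS comparisons. Of all 14786 genes, 2146 were called lower in LPS_EF against EF and 1581 in LPS_EF_RD against EF_RD. On these 2 backgrounds the share called lower was above that of all genes for the substrate list and below it for the regulators. Whether the lists differ from all genes was not tested. Without the 6 libraries that stand apart the substrate genes called lower were 8, 10 and 5 of 17 on the EF, EF_PF and EF_RD backgrounds and the regulators 3, 7 and 3 of 16. In that fit 40.1%, 41.1% and 32.7% of all genes were called on these backgrounds. Whether these list counts differ between backgrounds was not tested.

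Pklr was also called in a comparison without a change in LPS. It was lower in EF_RD than in control, at 115 beside 243 CPM (log2 fold change −1.08, SE 0.28, adjusted p = 0.0392), and without the 6 libraries that stand apart 0 of the 7 genes of its list were called there.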

How the data were processed

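Whole-liver RNA of 38 rats in 8 groups was analysed. The deposited values are whole-number counts of read pairs per gene name, made by the authors with featureCounts 2.0.6 on an rn6 RefSeq annotation, without strand or multimapping options, per the file headers. Besides featureCounts, mRatBN7.2 is listed as the build in the submitters' processing notes, with STAR and RSEM as tools; positions are those of the count table. The deposited TPM values equal length-scaled counts to within 0.0495% over 432813 values of 1 TPM or more and served for levels between genes. Of the columns, 0 were left unmatched, and 0 of 703 library pairs were identical. Samples are biological replicates per the design text.

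Counts were tested with edgeR 4.0.16 (R 4.3.3; filterByExpr, minimum count 10 and total 15; TMM; quasi-likelihood test with 1 mean per group over all 38 libraries) in 17 comparisons, two-sided, with Benjamini-Hochberg adjustment over 14786 genes. Genes with an adjusted p under 0.05 were called. The fit was also run on simulated counts in which a small set of genes changed in the LPS group only. That setting is simpler than these data and does not measure error rates here. Alternatives used DESeq2 1.42.0, limma 3.58.1, other scaling and filters, log2(TPM + 1), a replicate block and omission of libraries. Levels in CPM have SDs over libraries. The p-values of the main fit set a difference between groups against the spread within groups, estimated over all 38 libraries. The members and lists were chosen with earlier results of these data known. Named were all 6 members, up to 4 called genes per list and comparison with the largest log2 fold change and at least 2 CPM, and the 5 genes most correlated with each member. Some genes that this rule names are not reported here. G6pc3, Slc37a2, Slc37a1, Ppargc1a, Igfbp1, Fbp2, G6pc2 and A2m were added after their values were seen. Promoter sequences are RefSeq's, for GRCr8.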

Additional observations from a re-analysis of the deposited data

Results flagged for a closer look

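In 48 combinations of a gluconeogenesis gene with a group of 4 or 5 libraries, 7 had a library far from the others of its group by Dixon's test, where chance alone flags about 1 in 20. Pck1 was at 3377 CPM in EF_RD 3, with the other EF_RD libraries at 2816 to 2885 CPM. Pck2 was at 8.76 CPM in LPS_EF 7, with the others at 17.6 to 19.4 CPM, and at 21.2 CPM in LPS_EF_PF 1, with the others at 15.9 to 16 CPM. Pc was at 503.6 CPM in control 5, with the others at 742.8 to 834 CPM, and at 483.6 CPM in EF_RD 1, with the others at 685 to 706 CPM. Fbp1 was at 1044 CPM in EF 5, with the others at 550.5 to 678 CPM. G6pc was at 232 CPM in EF_RD 1, with the others at 796.5 to 878 CPM. Of these libraries, control 5, EF_RD 1 and LPS_EF 7 are among the 6 that stand apart in A2m or in muscle and pancreas markers, and what part that has in these values was not tested.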

How the results depend on the processing

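In LPS against control all 126 values of the 6 genes under the alternatives kept direction and call. Over the 17 comparisons 2273 values were recomputed: 32 lost a call, 9 gained one and no called value changed sign, while 83 values called in neither fit did. The number of genes called in LPS_EF against EF, 2 of 6, was 1 with total counts in place of TMM and with limma on log2(TPM + 1), on log2(TPM + 0.1) and on log2(TPM + 1) without a filter, and 0 when only the groups compared were fitted. It ranged from 0 to 2 when single libraries were left out. In LPS_EF_RD against EF_RD, 4 of 6, it was 1 when only the groups compared were fitted. In LPS_EF_PF against LPS_EF, 0 of 6, it was 1 with DESeq2. The causes were not tested. With the replicate number as a replicate block, the counts were 6, 2, 3 and 4 in LPS against control and on the EF, EF_PF and EF_RD backgrounds, and 1 call was lost, that of Pck1 in LPS_EF_PF against EF_PF (−0.76). Same-numbered libraries correlated from −0.247 to 0.453, and no label says that they pair. Over all genes LPS against control gave 5435 calls and 3565 with the block, LPS_EF against EF 4310 and 2127 with only the groups compared, and LPS_EF_RD against EF_RD 3470 and 1692. Scaling by total counts moved the median gene by 0.13 in LPS against control, where 72% of calls were then higher in place of 50.6%. Leaving out 6 libraries was chosen after seeing the data.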
